A study of Mus musculus with 2 samples.

Results

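Nppb, Sst, Nts and Nmb, the genes of 4 peptides linked to the relay of itch from skin nerves to the spinal cord, were followed through the neuron subtypes of mouse dorsal root ganglia. They were taken by gene symbol and are 4 of the 19059 genes in the deposited count tables. Ganglia of the cervical levels were taken after tamoxifen and 3 days of imiquimod, which inflames the skin, and both genotypes had both agents. The control mice were of genotype Foxp3 CreER; Penk fl/WT and the compared mice, called Penk fl/fl here, of genotype Foxp3 CreER; Penk fl/fl, so that both groups carried the recombinase and at least 1 floxed Penk allele. The recombinase is under the Foxp3 gene, whose product defines regulatory T cells, and Penk encodes the precursor of the enkephalins, opioid peptides. A group is 1 library of pooled tissue, of how many animals the sources used here do not say. No replicate check or test between genotypes can be had, and the exact 95% intervals given throughout reflect counting error alone.

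The assay counted fixed RNA through pairs of gene probes. It is called single-cell in the sample labels and single-nucleus in the series text. The control library held 15710 barcodes and 259136217 unique molecular identifiers (UMIs), and the Penk fl/fl library held 12067 barcodes and 156441497 UMIs. The targeted gene Penk had 582 UMIs over all kept control cells and 4 over all kept Penk fl/fl cells, and in neurons it had 334 and 1. The lower count was thus present in neurons too, outside the cells in which Foxp3 is known to act. Of the droplet barcodes, 4723 were found in both libraries, which is 30.1% of the control and 39.1% of the Penk fl/fl barcodes. Neurons numbered 6650 in the control and 5179 in the Penk fl/fl library, with a median depth of 10508.5 and 7385 UMIs. The results below rest on 10 neuron subtypes named from marker genes, with the 4 peptide genes kept out of both the clustering and the naming.

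Itch is carried from the skin by small sensory neurons, called pruriceptors, whose endings in the dorsal horn of the spinal cord release peptides and glutamate. Nppb encodes the B-type natriuretic peptide, which acts on spinal neurons through the receptor Npr1, and mouse pruriceptors that carry the interleukin 31 receptor are known for it. Sst encodes somatostatin, an inhibitory peptide that acts through the Sstr receptors. Nts encodes neurotensin, which binds Ntsr1, Ntsr2 and the sorting receptor Sort1. Nmb encodes neuromedin B, a peptide of the bombesin family that acts through Nmbr.

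The 4 genes lie on different chromosomes of GRCm39. Nppb (ENSMUSG00000029019) spans chromosome 4, 148069859 to 148071662, on the plus strand. Sst (ENSMUSG00000004366) spans chromosome 16, 23707321 to 23711733, Nts (ENSMUSG00000019890) chromosome 10, 102317614 to 102326396, and Nmb (ENSMUSG00000025723) chromosome 7, 80551975 to 80554829, all on the minus strand. Probe numbers and positions per gene were not used here, so levels are compared between cell classes and libraries for 1 gene at a time and not between genes.

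Among the named neuron subtypes, 3 of the 4 genes had their highest level in the same 1 and Nmb did not. The 250 bases before each transcription start are therefore shown, 5′ to 3′ on the strand of the gene. They are RefSeq sequences of the earlier build GRCm38.p6, at chr4:147985650-147985899 (plus strand) for Nppb, chr16:23890845-23891094 (minus) for Sst, chr10:102490419-102490668 (minus) for Nts and chr7:80905063-80905312 (minus) for Nmb. Capitals mark a TATA box in Nppb, a cAMP response element in Sst and an AP-1 element in Nts.
Nppb: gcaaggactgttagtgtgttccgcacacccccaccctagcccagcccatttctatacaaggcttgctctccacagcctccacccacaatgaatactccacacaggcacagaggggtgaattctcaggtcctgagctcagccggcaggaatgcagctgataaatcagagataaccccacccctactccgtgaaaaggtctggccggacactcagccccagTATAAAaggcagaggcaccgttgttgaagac
Sst: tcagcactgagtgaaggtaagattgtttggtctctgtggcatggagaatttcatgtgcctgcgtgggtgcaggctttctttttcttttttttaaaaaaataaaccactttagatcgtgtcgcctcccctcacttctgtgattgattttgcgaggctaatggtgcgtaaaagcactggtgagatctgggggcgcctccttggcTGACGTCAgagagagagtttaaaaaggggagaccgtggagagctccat
Nts: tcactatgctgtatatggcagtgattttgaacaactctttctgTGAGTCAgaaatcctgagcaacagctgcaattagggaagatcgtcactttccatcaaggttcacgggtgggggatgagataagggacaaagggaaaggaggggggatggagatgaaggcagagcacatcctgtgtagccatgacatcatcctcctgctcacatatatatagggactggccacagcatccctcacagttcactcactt
Nmb: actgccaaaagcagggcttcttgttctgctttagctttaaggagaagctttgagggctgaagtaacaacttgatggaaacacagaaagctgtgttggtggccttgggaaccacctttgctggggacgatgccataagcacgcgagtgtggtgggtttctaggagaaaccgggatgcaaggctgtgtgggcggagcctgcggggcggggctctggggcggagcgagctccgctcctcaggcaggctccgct

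Of 4 motifs searched on both strands, Nppb, Sst and Nts each held the E-box and 1 other, which differed among the 3. Nmb held none. A link of these motifs to the Il31ra subtype was not tested. The TATA box (TATAAA) was found in Nppb 31 to 26 bases before the start, and in 12.4% of the 32851 upstream windows of the same length in the table. The cAMP response element (TGACGTCA), which binds CREB-family factors and is a textbook element of the somatostatin gene, was found in Sst 48 to 41 bases before the start and in 1.55% of all windows. The AP-1 element (TGANTCA), which binds Fos and Jun proteins, was found in Nts as TGAGTCA 207 to 201 bases before the start and in 6.75% of all windows. The E-box (CANNTG) was found once in each of Nppb, Sst and Nts and is in 66.2% of all windows. None of the motifs overlapped another. These are matches of letters in 1 window per gene and no binding was measured.

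Nppb was concentrated in a single subtype. In the Il31ra pruriceptor-like neurons, cells marked by Il31ra, Osmr, Cysltr2 and Htr1f, it had 6210 UMIs in 359 control cells, or 1009 CPM (interval 984 to 1035), where CPM is UMIs of the gene per 1000000 UMIs of the cell class in that library, and 5597 UMIs in 296 Penk fl/fl cells, or 1095 CPM (1066 to 1124). A UMI of Nppb was found in 86.6% of these control cells (82.7 to 90.0) and 84.5% of the Penk fl/fl cells (79.8 to 88.4). In all neurons outside the subtype the level was 4.60 and 5.34 CPM, so that the subtype stood 219-fold above them in the control (205 to 235) and 205-fold in the Penk fl/fl library (189 to 223). The subtype made up 5.40% and 5.72% of neurons and held 86.9% and 89.6% of neuronal Nppb UMIs.

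The subtype carried the markers it is named for in both libraries. Il31ra itself had 1441 and 1542 CPM there and was found in 90.8% and 89.2% of the cells. Of 8 general neuron markers, all had UMIs, each in at least 61.1% of the cells. Of 8 markers of spinal cord neurons, Pax2, Gad1, Gad2, Slc6a5 and Lbx1 were at 0 in both libraries, and nearly all of the summed 530 and 390 UMIs of the list were those of Tlx3, which dorsal root ganglion neurons also express (528 and 387 UMIs).

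In the other 9 named subtypes the Nppb level lay between 1.51 and 9.85 CPM in the control and between 0.615 and 6.48 CPM in the Penk fl/fl library. The order of these 9 was not fixed by the counts. Neighbours in the order either had overlapping intervals in at least 1 library or changed places between the libraries. Single cells weighed on these sums. In A-delta LTMR-like neurons, a type of touch receptor, the control level of 8.30 CPM came from 92 UMIs in 11 cells, against 4 UMIs in 4 cells and 0.615 CPM in the Penk fl/fl library. In Mrgpra3 pruriceptor-like neurons, the chloroquine-sensitive itch type, it came from 100 UMIs in 22 cells, against 17 UMIs in 17 cells.

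Sst was concentrated in the same subtype. It had 1224 UMIs and 199 CPM (188 to 210) in the control Il31ra pruriceptor-like neurons, and 1075 UMIs and 210 CPM (198 to 223) in those of the Penk fl/fl library. The highest of the other 9 subtypes was the peptidergic A-like, at 0.787 and 2.15 CPM, and the C-LTMR-like neurons, unmyelinated touch receptors, had 1 and 0 UMIs. The subtype stood 326-fold above all other neurons in the control (271 to 395) and 166-fold in the Penk fl/fl library (140 to 198). Sst was found in 51.3% of the cells of the subtype in the control (46.0 to 56.5) and 60.8% in the other library (55.0 to 66.4), and these intervals overlap. The subtype held 90.8% and 87.5% of neuronal Sst UMIs.

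Nts had the same leading subtype and a further source outside it. The Il31ra pruriceptor-like neurons had 1097 UMIs and 178 CPM (168 to 189) in the control and 948 UMIs and 185 CPM (174 to 198) in the Penk fl/fl library, and 54.6% and 60.5% of the cells had a UMI. In the other named subtypes the control level was at most 5.67 CPM, in A-beta LTMR-like neurons, and the Penk fl/fl level at most 14.4 CPM, in Trpm8 cold-like neurons, where 28 UMIs came from 5 cells. The Il31ra subtype held only 46.0% and 48.9% of neuronal Nts UMIs, while neurons without a name held 32.5% and 36.0%. This split depends on the clustering: at a coarser Leiden resolution of 0.5 the Il31ra subtype, then of 377 and 306 cells, held 76.5% and 83.3%.

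**Figure D1:**
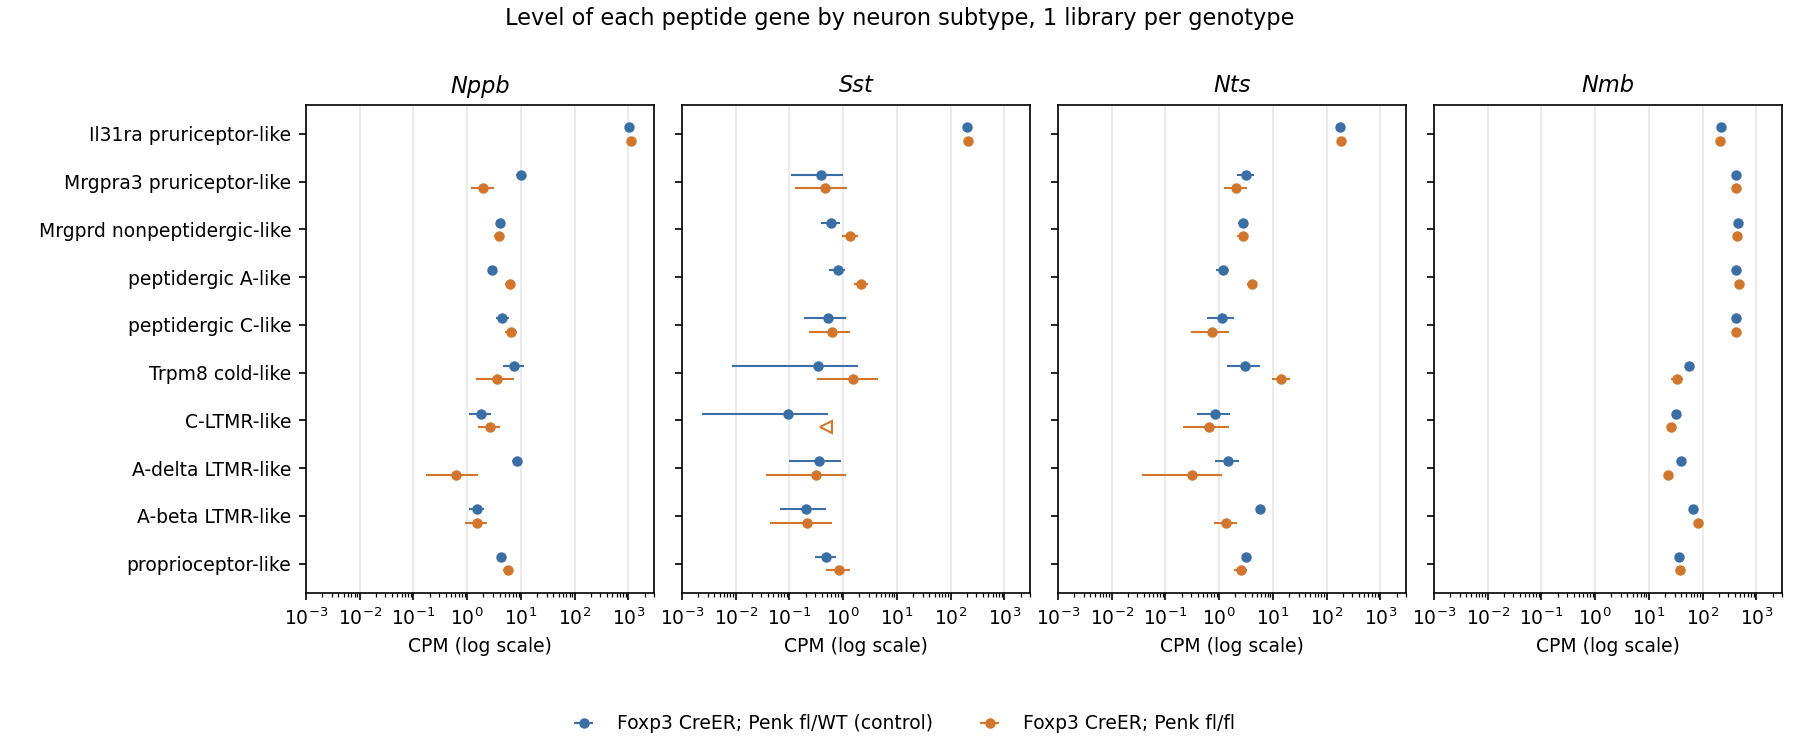
Level of Nppb, Sst, Nts and Nmb in the 10 named neuron subtypes, in CPM on a log axis, with exact Poisson 95% intervals; each point is 1 library and the open triangle is the upper limit for 0 UMIs. Nppb, Sst and Nts peak in the Il31ra pruriceptor-like neurons at 1009, 199 and 178 CPM in the control, while Nmb is between 410 and 470 CPM in 4 other subtypes.

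Nearly all of the Nts in unnamed neurons was in 1 small cluster, which was singled out after its values had been seen. The cluster held 15 control and 11 Penk fl/fl neurons, 0.226% and 0.212% of all neurons, and was led by Sprr1a, Gfra3, Atf3, Ecel1 and Lgals3. Atf3 and Sprr1a are well known as genes that sensory neurons switch on after axon injury. Atf3 was found in 15 of 15 and 11 of 11 cells, but Sprr1a in only 6 of 15 and 6 of 11. Gap43 was at 3446 and 3269 CPM, against 382 and 423 CPM in neurons outside both this cluster and the Il31ra subtype. Gal had 16 and 0 UMIs in the cluster, and Npy had 0 in both libraries. Injury of these cells was not tested. Nts had 715 UMIs there in the control and 668 in the Penk fl/fl library, or 2529 CPM (2347 to 2722) and 2004 CPM (1854 to 2161). That is 29.98% and 34.4% of neuronal Nts UMIs.

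In the 15 control neurons the Nts count ran from 0 through a median of 8 to 360 UMIs, and the highest cell held 50.3% of the UMIs. In the 11 Penk fl/fl neurons it ran from 1 through a median of 27 to 188 UMIs, and the highest cell held 28.1%. Of these cells, 11 of 15 and 11 of 11 had Nts. At least 20 UMIs were counted in 5 and 7 cells of the cluster, against 8 and 4 cells of the far larger Il31ra subtype. Median depth was 22311 and 37999 UMIs, and 3 cells of each library lay in droplets shared by both libraries. By Scrublet, which scores droplets for holding several cells, 5 control and 2 Penk fl/fl cells of the cluster were among the highest scores.

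The other 3 peptide genes differed among themselves in this cluster. Sst had 0 UMIs in both libraries, which allows at most 13.1 and 11.1 CPM by the exact interval. Nppb had 12 and 50 UMIs, or 42.5 and 150 CPM, in 6 of 15 and 8 of 11 cells, which was below the Il31ra subtype and above the 4.55 and 4.94 CPM of neurons outside both. Nmb had 45 and 31 UMIs, or 159 and 93.0 CPM, against 249.9 and 263 CPM in neurons outside both. Markers of the Il31ra subtype were present at lower levels, with Il31ra at 24.8 and 366 CPM, Osmr at 103 and 294 CPM and Ptafr at 0 UMIs in both. The best match of the cluster was the Il31ra type, but with under 50 cells it was given no name. Atf3 was at 980 and 1050 CPM, against 45.2 and 49.5 CPM in the Il31ra subtype and 18.7 and 15.3 CPM in all other neurons. Without the 26 cells, the Il31ra subtype held 65.7% and 74.5% of neuronal Nts UMIs.

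**Figure D2:**
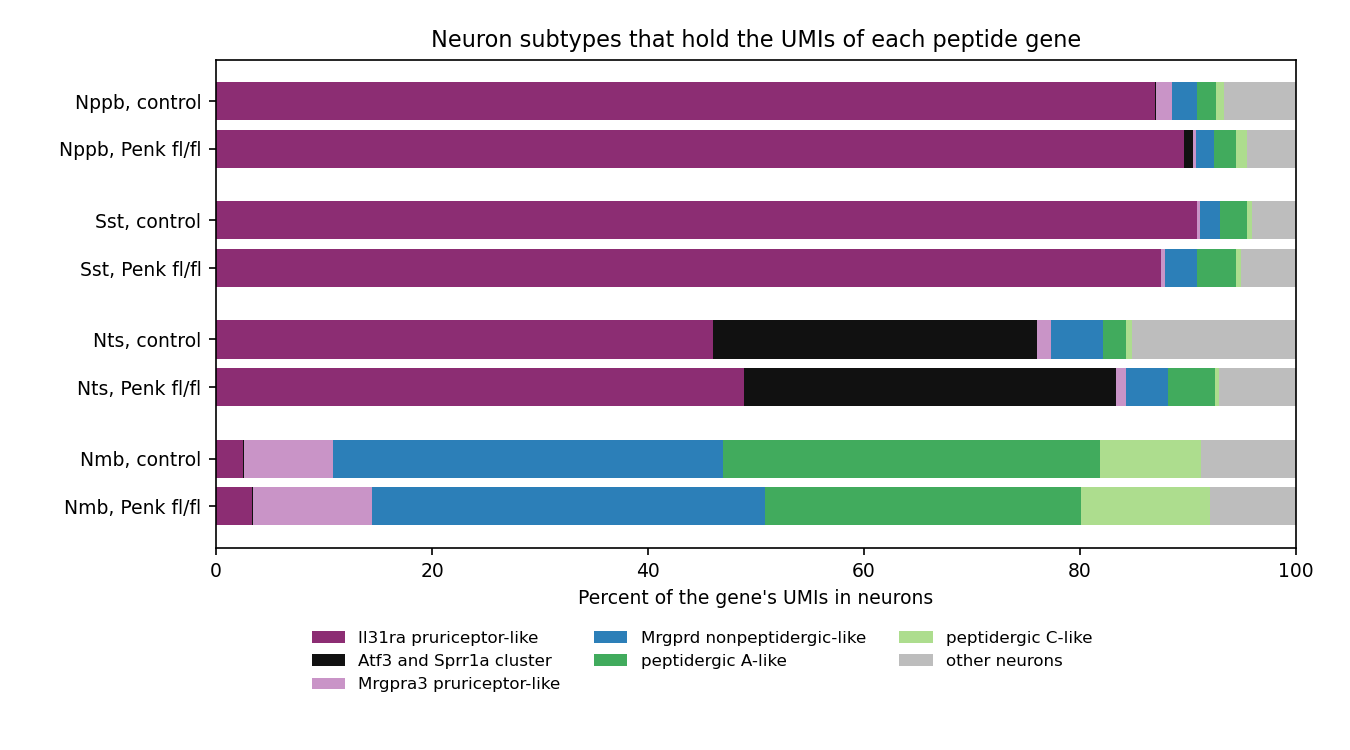
Percent of each gene's neuronal UMIs held by neuron classes, with 1 bar per gene and library. The Il31ra pruriceptor-like neurons hold 86.9% and 89.6% of Nppb and 90.8% and 87.5% of Sst, the 26-cell cluster led by Sprr1a and Atf3 (black) holds 29.98% and 34.4% of Nts, and Nmb is spread over 4 other subtypes.

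Nmb had a broad distribution with a different peak. Its mean level over both libraries was highest in peptidergic A-like neurons, myelinated nociceptors, with 18177 UMIs and 421 CPM (415 to 427) in 1011 control cells and 9611 UMIs and 470 CPM (461 to 480) in 608 Penk fl/fl cells. Mrgprd nonpeptidergic-like neurons followed with 451 CPM (445 to 458) and 438 CPM (430 to 446), Mrgpra3 pruriceptor-like neurons with 421 and 424 CPM, and peptidergic C-like neurons, unmyelinated nociceptors, with 422 and 410 CPM. The peptidergic A-like and Mrgprd nonpeptidergic-like neurons changed places between the libraries, with separate intervals in each. The other neighbours had intervals that overlapped in at least 1 library, so these 4 subtypes have no fixed order.

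The Il31ra pruriceptor-like neurons came next, at 215 CPM (204 to 227) in the control and 212 CPM (199 to 225) in the Penk fl/fl library, below the 4 leading subtypes in both. Nmb there was 0.862-fold the level of all other neurons in the control (0.816 to 0.910) and 0.807-fold in the other library (0.759 to 0.858). It was followed by A-beta LTMR-like neurons at 67.5 and 81.0 CPM. The lowest levels were those of Trpm8 cold-like, proprioceptor-like, A-delta LTMR-like and C-LTMR-like neurons, at 31.7 to 54.8 CPM in the control and 22.3 to 37.3 CPM in the Penk fl/fl library.

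Within each leading subtype the cells differed widely. Nppb in Il31ra pruriceptor-like neurons had a median of 8 UMIs per control cell, an upper quartile of 26 and a highest cell of 112, and in the Penk fl/fl library a median of 7, an upper quartile of 28 and a highest cell of 143. Sst and Nts each had a median of 1 UMI per cell in both libraries, with highest cells of 43 and 95 in the control and 42 and 31 in the Penk fl/fl library. Nmb in peptidergic A-like neurons had a median of 4 UMIs in the control and 3 in the Penk fl/fl library, with highest cells of 197 and 179. The 36 control and 30 Penk fl/fl cells with the highest counts held 38.9% and 42.6% of Nppb, 58.8% and 53.7% of Sst and 58.6% and 47.6% of Nts UMIs of the Il31ra subtype. Cell depth moves with these counts and was not taken out of them.

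Cells that should lack the genes also held a few UMIs. In proprioceptor-like neurons, the muscle sensory type, Nppb was found in 4.08% of control and 7.14% of Penk fl/fl cells. Their median depth was 9019 and 5207 UMIs, beside 8707 and 7910.5 UMIs in the Il31ra subtype. Sst was found there in 0.915% and 1.19%, and Nts in 4.83% and 4.22%. In myelinating Schwann-like cells, with median depths of 1209 and 1088 UMIs, the shares were 3.28% and 2.65% for Nppb, 0.575% and 0.779% for Sst and 1.44% and 0.857% for Nts. Across the other 9 named subtypes the highest share was 7.72% and 7.14% for Nppb, 1.78% and 1.98% for Sst and 5.41% and 6.39% for Nts, and none of these is read as expression.

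With every cell thinned to 500 UMIs, which left out none, the contrast between classes stayed. Nppb was then found in 35.1% of control Il31ra pruriceptor-like neurons (30.2 to 40.3) and 37.5% of those of the Penk fl/fl library (32.0 to 43.3), in 0.0832% and 0.757% of proprioceptor-like neurons and in 0.978% and 0.701% of myelinating Schwann-like cells. Sst was found in 8.36% and 12.2% of the subtype and in 0.0832% and 0.108% of proprioceptor-like neurons. Nts was found in 8.64% and 9.12% of the subtype and in 0.166% and 0.324% of proprioceptor-like neurons.

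Nmb was also found in cells that are not neurons. Macrophage-like cells had it at 142 and 122 CPM and in 13.8% and 12.2% of cells, at median depths of 928 and 905.5 UMIs, and myelinating Schwann-like cells at 122 and 121 CPM and in 18.3% and 15.4%. The ratio of Nmb to Nppb UMIs differed among the non-neuronal classes compared, beside 7.41 and 5.42 over all cells of the library. It was 6.87 and 6.20 in myelinating Schwann-like cells, 6.68 and 4.00 in macrophage-like cells and 6.71 and 7.17 in endothelial-like cells. Fibroblast-like cells had 9.84 and 7.72. Satellite glia-like cells, like the fibroblast-like cells, were above the value of the whole library in both libraries. In peptidergic A-like neurons the ratio was 147 and 76.3, and in the Il31ra subtype 0.213 and 0.193. Thinned to 500 UMIs, Nmb was found in 4.60% and 5.27% of macrophage-like cells, in 18.6% and 21.2% of peptidergic A-like neurons, in 10.9% and 10.1% of the Il31ra subtype and in 3.08% and 3.35% of proprioceptor-like neurons. The Il31ra subtype was thus above the macrophage-like cells, and the proprioceptor-like neurons were not. Unnamed cells outside the neuron clusters, most of them in a cluster led by globin genes, had Nmb at 225 and 238 CPM and, when thinned, in 10.9% and 11.2% of cells, no lower than the Il31ra subtype. Some named neuron subtypes had less Nmb, down to 31.7 CPM in control C-LTMR-like neurons and 22.3 CPM in Penk fl/fl A-delta LTMR-like neurons. Whether the Nmb UMIs of the Il31ra subtype or of the non-neuronal classes are expression or background was not tested.

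A few cells outside the Il31ra subtype held at least 10 UMIs of Nppb, 28 in the control and 18 in the Penk fl/fl library, against 169 and 133 inside it. All of these Nppb cells also had at least 3 UMIs of a marker of the Il31ra subtype, and their median depth was 85554.5 and 81148 UMIs, against 30716 and 32585 for the cells with as much Nppb inside the subtype. For Sst there were 2 and 6 such cells outside and 44 and 36 inside. For Nts there were 23 and 18 outside, of which 8 and 10 were in unnamed neurons, and 33 and 32 inside. Of those outside, 12 and 15 had such a marker. The share of other cells of like depth that had such a marker is not given here. The part of droplets with several cells in these counts was not tested.

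The comparison of the libraries sets the peptide genes of ganglia with both Penk alleles floxed beside those with 1. Over all neurons, Nppb was at 34.1 CPM (33.4 to 34.9) in the control and 49.5 CPM (48.3 to 50.7) in the Penk fl/fl library, a ratio of 1.45 (1.40 to 1.499). Sst was at 6.44 and 9.73 CPM, a ratio of 1.51 (1.40 to 1.63), and Nts at 11.4 and 15.4 CPM, a ratio of 1.35 (1.27 to 1.43). Nmb was at 249 and 260 CPM, a ratio of 1.05 (1.03 to 1.06). With a step of 1.2 as the size of note, 3 of the 4 genes were past it, all higher in the Penk fl/fl library. Of the 13534 genes with at least 100 UMIs over both libraries, 3.52% were past the step in that direction and 6.35% in the other. With 1 library per genotype these ratios compare those libraries and not the genotypes.

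Within the Il31ra pruriceptor-like neurons the ratios of summed UMIs were nearer to 1. Nppb was at 1.08 (1.05 to 1.12), Sst at 1.06 (0.973 to 1.15), Nts at 1.04 (0.952 to 1.14) and Nmb at 0.984 (0.907 to 1.07). None of the 4 was past the step, which 5.01% of 9035 genes passed upward and 8.28% downward there. That call depends on the setting: with each cell thinned to 2000 UMIs the ratio was 1.21 for Nppb, 1.35 for Sst and 0.919 for Nts, with each cell weighted equally it was 1.49 for Sst, and without the droplet barcodes found in both libraries it was 1.25 for Nts. From summed UMIs, the naming markers of the subtype lay on both sides of 1. Il31ra was at 1.07, Osmr at 1.10, Cysltr2 at 1.10, Htr1f at 1.11 and Ptafr at 0.919 (0.827 to 1.02). The remaining marker, Ada, had 307 and 305 CPM in the subtype. Nmb in its own highest subtype, the peptidergic A-like neurons, was at 1.12 (1.09 to 1.15), where 4.4% of 11817 genes were past the step upward. In the other 3 leading subtypes of Nmb the ratio was 0.970 in Mrgprd nonpeptidergic-like, 1.01 in Mrgpra3 pruriceptor-like and 0.971 in peptidergic C-like neurons.

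The share of neuronal UMIs that came from the Il31ra subtype differed more than its level. It was 2.94% in the control and 4.05% in the Penk fl/fl library, whereas the share of neurons was 5.40% and 5.72%. With each subtype held at its control level and only the subtypes' shares of neuronal UMIs taken from the Penk fl/fl library, the neuronal ratio was 1.33 for Nppb, 1.34 for Sst, 1.22 for Nts and 1.03 for Nmb. With the shares held at control values and only the levels taken from the Penk fl/fl library, it was 1.09, 1.15, 1.11 and 1.03. With the named subtypes weighted equally, the ratios over neurons were 1.07 for Nppb, 1.07 for Sst, 1.07 for Nts and 0.996 for Nmb. With each neuron weighted equally they were 1.14 for Nppb, 1.59 for Sst, 1.18 for Nts and 0.985 for Nmb, so that Sst stayed past the step. How many neurons of a type were recovered and how much RNA each gave cannot be told apart from a change in the animals with 1 library per genotype.

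Outside the subtype, the Sst ratio rested on few UMIs. Sst had 124 and 153 UMIs in all other neurons, a ratio of 2.07 (1.62 to 2.64), and 142 and 173 UMIs in cells that are not neurons, a ratio of 2.01 (1.60 to 2.53). Nppb was at 1.16 (1.05 to 1.28) in the other neurons and 1.21 (1.08 to 1.35) in cells that are not neurons, and Nts at 1.29 (1.19 to 1.40) and 1.31 (1.13 to 1.51). The other neurons include the 26-cell cluster. Without that cluster they had Nts at 2.83 CPM in the control (573 UMIs) and 2.68 CPM in the Penk fl/fl library (324 UMIs), not higher in the latter. They also include an unnamed cluster of 7 control and 6 Penk fl/fl cells, led by Il31ra and Mrgprd and picked after its values were seen. It held Nppb at 302 and 316 CPM on 125 and 111 UMIs, and Sst at 53.2 and 99.6 CPM on 22 and 35 UMIs.

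**Figure D3:**
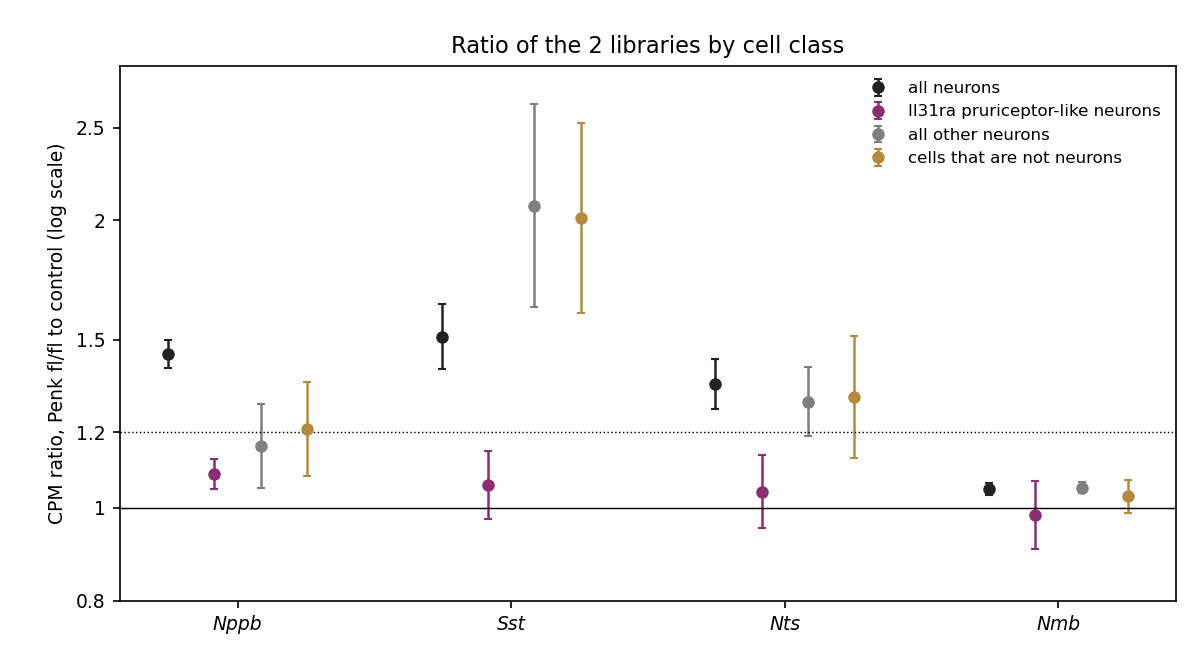
CPM ratio of the Penk fl/fl to the control library on a log axis, with exact conditional binomial 95% intervals, for all neurons, the Il31ra pruriceptor-like neurons, all other neurons and cells that are not neurons; the dotted line is the step of 1.2. Over all neurons Nppb, Sst and Nts lie at 1.45, 1.51 and 1.35, and within the Il31ra pruriceptor-like neurons at 1.08, 1.06 and 1.04.

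Single Il31ra pruriceptor-like neurons often held several of the 4 peptide genes. All 4 were found in 131 of 359 control cells, or 36.5% (31.5 to 41.7), and in 119 of 296 Penk fl/fl cells, or 40.2% (34.6 to 46.0). None was found in 29 control cells (8.08%) and 15 Penk fl/fl cells (5.07%). The most common sets after all 4 were Nppb alone with 49 cells and Nppb with Nmb with 40 cells in the control, and Nppb with Nts and Nmb with 29 cells and Nppb with Nmb with 25 cells in the Penk fl/fl library.

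Nppb was common in the subtype whether or not Sst or Nts was found. Of control cells of the subtype with Sst, 176 of 184 also had Nppb (95.7%, 91.6 to 98.1), and of Penk fl/fl cells 166 of 180 (92.2%, 87.3 to 95.7). Of the cells without Sst, 77.1% and 72.4% had Nppb. Of the cells with Nts, 95.9% and 95.5% had Nppb, against 75.5% and 67.5% of those without. The reverse was less complete, since 56.6% and 66.4% of Nppb-positive cells had Sst and 60.5% and 68.4% had Nts. Sst and Nts were found together in 144 control cells and 137 Penk fl/fl cells, 1.43 and 1.26 times the number given by the product of their separate shares.

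Depth moved with all of these counts. Control cells with none of the 4 genes had a median of 1090 UMIs and those with all 4 a median of 31754, and in the Penk fl/fl library the medians were 765 and 30584. After thinning of each cell to 2000 UMIs, 278 control and 220 Penk fl/fl cells remained, and all 4 genes were found in 1.80% (0.587 to 4.15) and 6.36% (3.52 to 10.4). Nppb was then found in 77.7% and 83.2% of the cells. Sst was found in 25.9% of Nppb-positive cells and 24.2% of Nppb-negative cells in the control, and in 31.1% and 37.8% in the Penk fl/fl library, so that at equal depth an association of Nppb with Sst was not detectable.

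For Sst and Nts the excess stayed at equal depth. They were together in 27 thinned control cells and 25 thinned Penk fl/fl cells, 1.43 and 1.34 times the number given by their separate shares. In the control, 38.0% of cells with Sst had Nts (26.8 to 50.3) against 22.7% of those without, and in the Penk fl/fl library 35.2% (24.2 to 47.5) against 22.1%. The other pairs lay between 0.917 and 1.11 times the product. Cells of 1 library are not replicates, so these figures are given as a description.

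**Figure D4:**
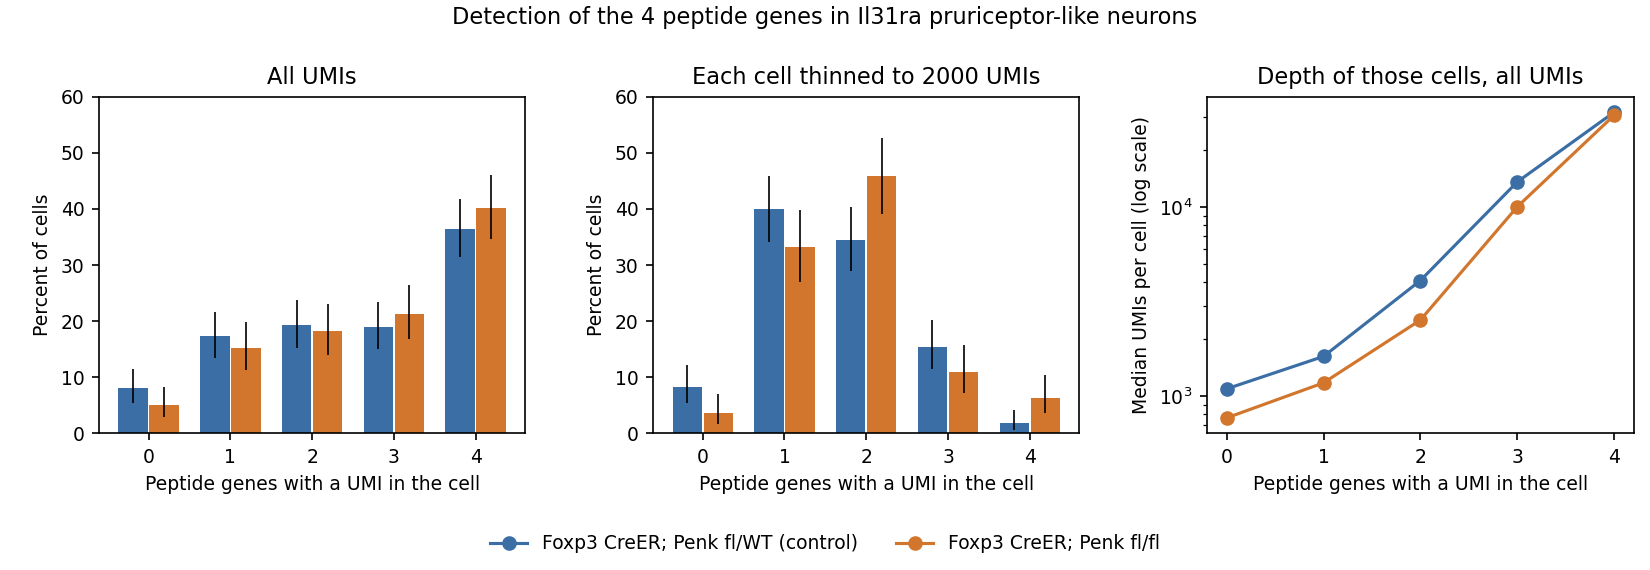
Percent of Il31ra pruriceptor-like neurons with a UMI of 0, 1, 2, 3 or 4 of the peptide genes, with exact binomial 95% intervals, from all UMIs and after thinning each cell to 2000 UMIs, and the median depth of those cells on a log axis. All 4 genes were found in 36.5% and 40.2% of cells at median depths of 31754 and 30584 UMIs, and in 1.80% and 6.36% after thinning.

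Receptors for the peptides were mostly at low levels in the ganglion neurons. Of 14 receptor genes, 9 had at least 100 UMIs over both libraries in neurons. The natriuretic peptide receptor Npr2, a guanylyl cyclase that binds the C-type peptide, had 88.1 and 87.9 CPM over neurons, and the neurotensin sorting receptor Sort1 had 38.1 and 36.0. The somatostatin receptors Sstr4 and Sstr1 had 5.18 and 6.96 CPM and 4.30 and 5.36 CPM. In the Il31ra subtype Npr2 was at 82.6 and 91.1 CPM and Sort1 at 6.66 and 10.6 CPM. Npr1, the receptor of the Nppb peptide, had 2 UMIs in the subtype in each library, and Sstr2, Ntsr1 and Nmbr had 0 (these 4 genes were picked after their values were seen). Over neurons, Sstr1, Sstr2, Sstr4 and Ntsr2 were past the step upward and Npr1 downward, and the median ratio of the 9 was 1.14. Over all genes tested, 3.52% were past the step upward and 6.35% downward, with a median log2 ratio of -0.0064.

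Most genes that process and pack peptides were present in the subtype, without passing the step where they could be compared. Of 15 such genes, 14 had enough UMIs over neurons and 13 in the Il31ra subtype, and none was past 1.2 in either direction in either set, with median ratios of 0.958 and 0.984. Pcsk1n, an inhibitor of the prohormone convertase Pcsk1, was at 1295 and 1274 CPM in the subtype, the granin family member Scg3 at 872 and 891, the carboxypeptidase Cpe at 420 and 384 and the vesicle priming factor Cadps at 345 and 330. The granin Scg2, picked after its values were seen, was 6.03-fold and 4.98-fold higher in the subtype than in other neurons. Pam was 2.58-fold and 2.44-fold higher, and Corin had 0 UMIs in the subtype beside 9 and 17 over neurons. Both were picked in the same way. Apart from Scg2 and Pam, the genes of the list were lower in the subtype in both libraries, such as Pcsk1n at 0.956-fold and 0.935-fold and Cadps at 0.676-fold and 0.682-fold.

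The 4 most abundant other peptide genes of sensory neurons were lower in the subtype than in the remaining neurons. Calca, the gene of the peptide CGRP, was at 68.6 and 73.3 CPM in the subtype against 444 and 537 CPM in other neurons. Tac1, which encodes substance P, was at 150 and 118 CPM against 220 and 279 CPM, Calcb at 22.8 and 22.5 CPM against 122 and 128 CPM, and Adcyap1, the gene of the peptide PACAP, at 13.7 and 20.7 CPM against 100.2 and 119 CPM. Of the 18 genes, 4 could be compared between libraries in the subtype, of which Adcyap1 was past the step upward with a ratio of 1.52 and Tac1 downward with 0.790. Cck, the gene of cholecystokinin, was at 8.29 and 5.28 CPM in the subtype, 120-fold and 32.0-fold above other neurons on 65 and 47 neuronal UMIs. Grp, the gene of gastrin-releasing peptide, had 3 UMIs in control neurons and 0 in Penk fl/fl neurons, and both were picked after their values were seen. Over all neurons, 10 of the 18 could be compared, of which Tac1, Cartpt and Pnoc were past the step upward and Npy downward, with a median ratio of 1.19, beside 3.52% and 6.35% of all genes.

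Receptors and signalling genes of itch neurons were set beside the peptides. Over neurons 10 of 21 were past the step upward (Il31ra, Osmr, Cysltr2, Htr1f, Hrh1, Mrgpra3, Mrgprx1, Mrgprb4, Mrgprd and Trpv1) and none downward, beside 3.52% and 6.35% of all genes, with a median ratio of 1.19. Within the Il31ra subtype 1 of 19 was past it upward, Mrgprd on 74 and 76 UMIs, beside 5.01% of all genes, with a median of 1.02. Jak1, the kinase of the interleukin 31 receptor, was at 2687 and 2744 CPM in the subtype, 9.09-fold and 10.1-fold above other neurons. The receptor chain Il6st was at 589 and 580 CPM, the phospholipase Plcb3 at 591 and 602 CPM and the vesicular glutamate transporter Slc17a6 at 235 and 222 CPM, the last at 0.663-fold and 0.593-fold of other neurons. The lists were chosen with earlier results of these data known, so their counts are no independent evidence.

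Across the 10 named subtypes of both libraries the profiles of Nppb, Sst and Nts ran together. Over these 20 points, which share 2 libraries and 1 clustering, Pearson's r of log2(CPM + 1) was 0.96 for Nppb with Sst, 0.91 for Nppb with Nts and 0.94 for Sst with Nts, and between 0.15 and 0.24 for Nmb with each of them. Among 13249 genes, those nearest to Nppb were Il31ra (r = 0.98), Pla2g12b, Fetub, Napsa and Gpr4, of which Il31ra was a naming marker. Nearest to Sst were Pla2g12b (0.98), Napsa, Bmp8a, Olfr78 and Fetub. Nearest to Nts were Acvr1c (0.95), Sst (0.94), F2rl1, the protease-activated receptor 2 (0.93), Eppk1 and Mybpc2. Nearest to Nmb were Spata24 (0.96), Ccp110, Stam and Insm2. For the first 3 peptides the likeness rests on the single high subtype. Some of the nearest genes were low even there, with Acvr1c at 1.95 and 2.74 CPM, Fetub at 9.26 and 13.7 CPM and Eppk1 at 11.4 and 9.78 CPM.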

How the data were processed

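Raw UMI counts for each gene and barcode are what the authors deposited. They were made with Cell Ranger and GRCm39, as the labels' protocols state, and the barcodes were already called as cells. The version is 7.0 in the protocol and 8.0.1 per the file headers. Seurat appears in the submitters' processing notes without a stated role.

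A minimum of 500 UMIs and 300 genes was set for a barcode (leaving 15690 control and 12053 Penk fl/fl cells). Both libraries were clustered together in scanpy 1.11.5 (Python 3.11.15, igraph 0.11.9) on 3000 variable genes, 40 principal components and 15 neighbours, by Leiden at resolution 1.0, and neurons were then clustered again on their own without the 4 peptide genes. A name needed at least 50 cells and 3 markers at least 2-fold up. Score limits were set with the clusters in view. Names mean only that the cells carry the markers. Scrublet's automatic threshold marked 0 and 3 cells and so did not work. No doublets were removed, and removal of the 3473 and 1789 highest scores was an alternative.

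CPM was the summed UMIs of a gene over the summed UMIs of all genes in a class of 1 library, with exact Poisson intervals. Shares have Clopper-Pearson intervals and ratios exact conditional binomial intervals (scipy 1.17.1). The ratio step was 1.2, among genes with at least 100 UMIs over both libraries. The interval code was tested on simulated data. With 1 library per genotype no p-value was computed. The peptide genes, the lists and the alternatives were chosen with earlier results of these data known. Besides the 4 peptide genes, the text names up to 4 genes of each list with the most neuronal UMIs, those past the step, and the 5 genes most like each peptide gene, of which 1 is not reported here. Promoter sequences are from RefSeq (GRCm38.p6), in which 4 of 4 genes were found, and gene positions are from the GENCODE annotation of GRCm39.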

Additional observations from a re-analysis of the deposited data

How the results depend on the processing

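No paired analysis was possible because each genotype was 1 library. Of 28 values, recomputed 236 times under other settings, no ratio of Nppb, Sst or Nts over all neurons went below 1, whereas that of Nmb, 1.05, did under 3 settings. The causes of these shifts were not tested.

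With droplets that hold a cell of 1 library only, the ratio over all neurons was 1.39 for Nppb, 1.38 for Sst and 1.01 for Nmb, and that of Nts in the Il31ra subtype 1.25. The subtype then held 92.5% and 93.2% of neuronal Nppb UMIs (control and Penk fl/fl), 92.9% and 91.3% of Sst and 43.6% of control Nts, and peptidergic A-like neurons 33.2% and 28.4% of Nmb. With the highest Scrublet scores removed, the subtype held 89.9% and 90.4% of Nppb and 93.8% and 89.5% of Sst, peptidergic A-like neurons held 31.0% of Penk fl/fl Nmb with a ratio of 1.08, control Nppb-positive cells had Sst in 65.6%, and Nppb-positive cells had Nts in 67.4% and 74.9%.

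With neurons thinned to 2000 UMIs, the ratio over neurons was 1.26 for Nppb, 1.10 for Nts and 0.991 for Nmb, and in the Il31ra subtype 1.21 for Nppb, 1.35 for Sst and 0.919 for Nts. The subtype held 90.1% of control Nppb, 92.6% of Penk fl/fl Sst and 41.9% of Penk fl/fl Nts, and peptidergic A-like neurons 29.2% and 24.2% of Nmb. Nppb-positive cells then had Sst in 25.9% and 31.1% and Nts in 24.5% and 28.4%. With at least 3 UMIs as detection these were 42.6% and 51.3% for Sst and 39.4% and 50.8% for Nts.

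With subtypes weighted equally the ratios over neurons were 1.07 for Nppb, 1.07 for Sst, 1.07 for Nts and 0.996 for Nmb, and with each neuron weighted equally 1.14 for Nppb, 1.59 for Sst, 1.18 for Nts and 0.985 for Nmb. With each cell of the subtype weighted equally, the ratio in the Il31ra subtype was 1.01 for Nppb, 1.49 for Sst and 1.16 for Nts, and that of Nmb in peptidergic A-like neurons 1.05.

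At Leiden resolution 0.5 the Il31ra subtype held 90.4% of Penk fl/fl Nppb and 76.5% and 83.3% of Nts, and peptidergic A-like neurons 37.9% and 32.6% of Nmb with a ratio of 1.09. At resolution 2.0 they held 32.7% and 27.4%. With the peptide genes among the variable genes they held 31.8% and 27.5%, with a ratio of 1.06. Without the 26-cell cluster, an alternative chosen after seeing the data like the thinning to 500 UMIs, the Nts ratio over neurons was 1.26 and the subtype held 65.7% and 74.5% of Nts. At a minimum of 1000 UMIs per cell the ratios, shares of UMIs and co-detection above moved by less than their counting intervals, as did the ratios within a subtype with the highest cell left out. Depth limits detection of Sst and Nts, at a median of 1 UMI per cell.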
